A study of Mus musculus with 32 samples.

Results

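The genes described here are the TGF-β ligands Tgfb1, Tgfb2 and Tgfb3, the BMP ligands Bmp3, Bmp4, Bmp6 and Bmp7, and the Id genes Id1, Id2 and Id3, 10 of the 22337 genes in the tables. They were chosen by symbol as a signalling family, without a threshold on any measured value but with earlier results of these data known. RNA-seq was performed on 32 samples, each from 1 mouse 6 months of age: 4 WT, 4 untreated and 4 light-treated 5xFAD hippocampi (HPC), and, of both meninges and sorted meningeal lymphatic endothelial cells (mLECs), 4 WT, 3 untreated and 3 light-treated 5xFAD samples. 5xFAD mice are males that carry mutated human genes for amyloid precursor protein and presenilin under the neuronal Thy1 regulatory sequence, and WT mice are littermates without the transgenes. Light-treated mice received near-infrared light through the shaved scalp under anesthesia in repeated sessions over several weeks, and control mice were handled the same way under room light. The mLECs were sorted from digested meninges as CD45-negative cells positive for CD31 and podoplanin. In tissue, less RNA per cell and fewer cells of a type cannot be told apart.

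TGF-β and BMP ligands are secreted dimers that bind pairs of type I and type II receptor kinases. TGF-βs signal mainly through SMAD2 and SMAD3 and BMPs through SMAD1, SMAD5 and SMAD9, each with SMAD4, and TGF-βs are held in a latent complex until they are activated. Bmp3 is an atypical member that antagonizes other BMPs. The Id genes encode helix-loop-helix proteins without a DNA-binding region, which inhibit differentiation factors of the bHLH family, and Id1, Id2 and Id3 are classical direct targets of BMP-SMAD signalling. In brain, TGF-β is known for keeping microglia in their resting state, BMPs for promoting astrocyte fate, and leptomeningeal and choroid plexus cells for secreting both kinds of ligand.

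On GRCm38, in the GENCODE vM21 annotation, all of these genes are protein-coding. Id3 lies at chr4:136143497-136145755 on the plus strand, Id1 at chr2:152736251-152737410 on the plus strand and Id2 at chr12:25093799-25097140 on the minus strand. Tgfb1 lies at chr7:25687002-25705077 (plus), Tgfb2 at chr1:186622792-186705989 (minus) and Tgfb3 at chr12:86056745-86079041 (minus). Bmp3 lies at chr5:98854415-98884396 (plus), Bmp4 at chr14:46383520-46390669 (minus), Bmp6 at chr13:38345107-38500302 (plus) and Bmp7 at chr2:172868012-172940321 (minus). RefSeq promoters on GRCm38.p6 were matched for 6 of the 10 genes. The windows of Id3, the gene with the firmest difference between genotypes, and of Id2, the most abundant member in HPC, are shown because both genes are read as BMP targets. Each is the 250 bases before the RefSeq start, 5′ to 3′ on the gene's strand, at chr4:136143572-136143821 for Id3 and chr12:25096093-25096342 for Id2, with capitals marking CAGAC or its complement GTCTG, the SMAD-binding box, and GGCGCC, a GC-rich SMAD-binding sequence.
Id3: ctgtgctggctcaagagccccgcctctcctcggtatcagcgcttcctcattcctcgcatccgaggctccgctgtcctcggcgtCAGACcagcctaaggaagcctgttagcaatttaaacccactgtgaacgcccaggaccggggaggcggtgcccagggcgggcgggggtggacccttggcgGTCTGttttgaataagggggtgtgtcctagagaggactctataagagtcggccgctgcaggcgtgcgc
Id2: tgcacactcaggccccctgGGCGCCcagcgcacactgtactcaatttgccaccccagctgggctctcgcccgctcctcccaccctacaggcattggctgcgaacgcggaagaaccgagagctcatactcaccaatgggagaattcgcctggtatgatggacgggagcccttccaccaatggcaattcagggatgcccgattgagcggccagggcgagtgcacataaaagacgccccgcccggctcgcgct
The Id3 window held 2 boxes of CAGAC type and no GGCGCC, and the Id2 window held 1 GGCGCC and no CAGAC. Of 32851 RefSeq windows of the same length, 42.2% held CAGAC or GTCTG and 9.59% held GGCGCC. The TATAAA letters (either strand) were in neither window and in 12.4% of all windows. TGACG or its complement, part of the cAMP response element, occurred 1 time in the Id3 window, where it overlaps the first CAGAC, and in 17.8% of all windows. These matches describe letters in a window and are not sites shown to bind. In both genes the GENCODE span begins upstream of the window.

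Levels are given as FPKM, the authors' value scaled by transcript length and library size, which allows genes to be compared with each other. Total counts were 13952825 to 23856476 in HPC, 6601143 to 14708202 in meninges and 14231415 to 24207326 in mLECs. Thy1, whose regulatory sequence drives the transgenes, had an FPKM of 170 to 189 in the 4 WT hippocampi and 407 to 622 in the 8 hippocampi from 5xFAD mice. In HPC, the untreated 5xFAD library of replicate 3 stood apart: Prox1, a marker of dentate granule neurons, was 2.43 there and 8.06 to 27.5 in the other 11 hippocampi. The members' estimates, the pathway lists and the shares of all genes called in HPC are therefore also given without it. A list of 19 fibroblast markers of the leptomeninges and dura summed to 71.8 to 159 in WT, 174 to 207 in untreated 5xFAD and 50.6 to 70.6 in light-treated 5xFAD hippocampi, with no marker at 0 throughout a group. The 12 choroid plexus markers summed to between 41.7 and 3263 over the hippocampi. In the mLEC libraries Pecam1 (CD31) was 189 to 398 and Ptprc (CD45) was listed at 0 in all 10, whereas Pdpn (podoplanin), which defined the sort, was listed at 0 in 4 of the 10 libraries (WT replicates 2 and 4, untreated 5xFAD replicates 2 and 4). Lyve1 and Pdpn were both at 0 in WT mLEC replicates 2 and 4. Other lymphatic markers were mixed in replicates 2 and 4, in that order. Ccl21a was 3.54 and 0, Mmrn1 0.06 and 19.7, Prox1 0 and 5.71, and Flt4 34.4 and 30.3.

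In WT mice, 7 of the 10 genes were higher in meninges than in HPC: Tgfb1, Tgfb3, Bmp4, Bmp6, Bmp7, Id1 and Id3. In edgeR's quasi-likelihood fit of all HPC and meninges samples, 73.0% of the 15132 genes tested differed between the tissues at an adjusted p below 0.05, so that a share of 7 in 10 was near that of genes at large. The labels do not say whether a hippocampus and a meninx came from the same mouse. Differences are given as log2 fold changes of fitted counts with their SE.

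In WT HPC the order by mean FPKM (SD, n = 4) was led by Id2 at 146 ± 19.7, Id3 at 36.2 ± 8.20 and Id1 at 19.3 ± 1.35. The ligands followed with Tgfb2 at 14.1 ± 0.817, Tgfb3 at 3.47 ± 0.291 and Bmp7 at 1.76 ± 0.475. Bmp6 at 0.752 ± 0.389, Bmp4 at 0.747 ± 0.321 and Bmp3 at 0.720 ± 0.252 could not be ordered, since their ranges overlapped. Tgfb1 was last at 0.0775 ± 0.0320, on 1 to 5 counts per sample. Id2 and Tgfb2 thus held the top of their families in HPC, and the ranges of all other neighbours in this order did not overlap.

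In WT meninges the order was different. Id3 at 409 ± 166 (SD, n = 4), Id1 at 264 ± 77.7 and Id2 at 222 ± 61.5 overlapped each other, and Tgfb3 at 20.0 ± 7.52, Bmp7 at 19.3 ± 3.80, Tgfb2 at 14.1 ± 2.67 and Bmp4 at 10.9 ± 4.90 overlapped from one gene to the next. Bmp6 followed at 5.53 ± 0.585, and Tgfb1 at 0.995 ± 0.34 and Bmp3 at 0.568 ± 0.236 were lowest.

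Id1 differed between the tissues by a log2 fold change of 3.70 ± 0.31 (13.0-fold, edgeR adjusted p = 1.98e-09). Bmp4 differed by 3.66 ± 0.39 (12.6-fold), Tgfb1 by 3.66 ± 0.54 (12.6-fold), Id3 by 3.43 ± 0.30 (10.8-fold) and Bmp7 by 3.39 ± 0.33 (10.5-fold). Bmp6 differed by 2.98 ± 0.31 (7.89-fold) and Tgfb3 by 2.46 ± 0.32 (5.50-fold), with adjusted p values of these 7 genes from 1.98e-09 to 4.44e-06. Tgfb1, on 1 to 5 counts in WT HPC, passed the filter through meninges alone, where it was high, and its estimate was 0.87 in limma on log2(FPKM + 1), against 3.43 to 3.80 with any replicate left out. For Tgfb2 the estimate was 0.00 ± 0.27 (adjusted p = 0.993), for Id2 0.52 ± 0.30 (adjusted p = 0.121) and for Bmp3 -0.67 ± 0.50 (adjusted p = 0.238). The sign of the Tgfb2 value turned with the setting, to -0.07 with no filter on low values and -0.02 in limma on log2(FPKM + 1).

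The rest of the pathway, in lists chosen by role, was higher in meninges for 58 of the 84 genes tested and lower for 12. Of all genes, 39.9% were higher and 33.2% lower. The filter counted samples of either tissue, so a gene low in HPC could enter through meninges alone, where it is high. In HPC alone 67 of the 84 passed, so these counts and medians describe the genes that were tested. Of the 12 tested genes listed under latency and activation, 11 were higher and 0 lower, and the list's median on the log2 scale was 3.07, compared with 0.12 for all genes. Those with the smallest adjusted p included Ltbp3 (4.55 ± 0.25), which anchors latent TGF-β in the matrix, and Ltbp2 (8.30 ± 0.60). Of 16 extracellular inhibitors, 12 were higher, such as Fstl1 (3.86 ± 0.19), which binds BMPs, and 3 were lower, among them Chrd, which encodes the BMP trap chordin, at -2.92 ± 0.30. Of 16 target genes, 12 were higher and 2 lower, with Tgfbi at 5.73 ± 0.32. Of 16 receptors and co-receptors, 8 were higher, with Eng at 3.13 ± 0.23 and Tgfbr2 at 3.12 ± 0.25, and 5 were lower, with Bmpr1b at -2.41 ± 0.30. Of 14 SMADs and regulators 9 were higher and 1 lower (Zeb2, -2.05 ± 0.19), and of 14 other ligands 9 were higher, with Gdf10 at 4.34 ± 0.32, and 1 was lower (Lefty1, -1.96 ± 0.53, named after its value was seen). Ltbp2, Skil, Smad6 and Smad7 stand in more than 1 of these lists.

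In HPC of untreated 5xFAD mice, Id3 and Bmp3 rose relative to WT. These were 2 of the 9 members tested, where 8.54% of the 12981 genes tested passed the same threshold (edgeR, adjusted p below 0.05). Over the 9 members the median of the log2 fold changes was 0.59, compared with 0.01 for all genes, with 8 estimates above 0 and Tgfb2 alone below. After light treatment, 1 of the 9 members, Bmp3, was lower than in untreated 5xFAD mice, where 0.455% of genes passed, and the median over the members was -0.74 against -0.02 over all genes. Relative to WT, light-treated mice had 1 member called, Id3, which was higher, against 3.59% of genes, and the members' median was -0.09. At an unadjusted p under 0.05 in edgeR, 6 of 9 members were higher in untreated 5xFAD than in WT, against 24.0% of genes (13.7% higher). With light, 7 of 9 were lower than in untreated 5xFAD mice, against 18.3% (9.81% lower). Light-treated mice against WT had 1 higher and 2 lower, against 16.7%. Bmp3 reached the filter on low values only through 3 untreated 5xFAD samples, the group in which it was high, so these counts and medians are descriptions of the genes that were tested. Without replicate 3 of untreated 5xFAD, the genes called between light-treated and untreated mice fell from 59 to 3 of 12981 (0.0231%), with 0 members among them. Between untreated 5xFAD and WT there were then 1141 in place of 1108 (8.79%), with the same 2 members, and between light-treated 5xFAD and WT 747 in place of 466 (5.75%), with Id1 called beside Id3. The members' medians without that library were 0.53, -0.70 and -0.09. At an unadjusted p under 0.05 in edgeR, 19.8% of genes then differed between light-treated and untreated mice, compared with 18.3% with the library kept. Of the 9 members, 6 were lower at that level without it and 0 higher.

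These 3 comparisons share samples, and untreated 5xFAD samples enter the first with one sign and the second with the other.

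**Figure D1:**
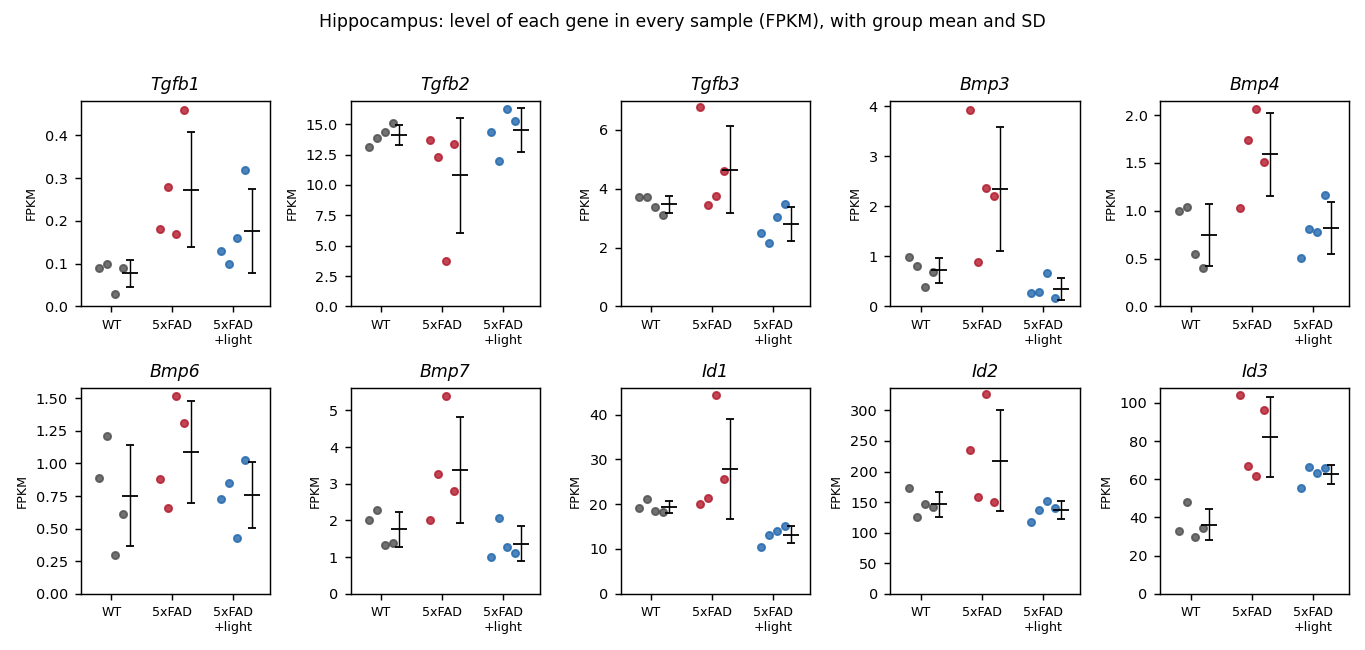
FPKM (linear axis, starting at 0) of the 10 genes in each hippocampus, 1 point per mouse, with 4 WT, 4 untreated and 4 light-treated 5xFAD mice, with the group mean and SD as a bar beside the points. Id3 lies above every WT sample in both 5xFAD groups, Bmp3 and Id1 in the light-treated samples lie below every untreated 5xFAD sample, and the single low Tgfb2 point is replicate 3 of untreated 5xFAD.

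Among the Id genes, the inhibitors of bHLH factors, Id3 was the most clearly changed. Its FPKM was 33.05, 48.2, 29.5 and 34.2 in WT, 104, 67.0, 61.8 and 96.05 in untreated 5xFAD and 55.4, 66.2, 63.1 and 65.8 in light-treated 5xFAD mice. Every 5xFAD sample, treated or not, was above every WT sample. Groups that did not overlap in this way were found for 1 of 9 members between untreated 5xFAD and WT, where 14.5% of genes did not overlap (18.9% without untreated 5xFAD replicate 3), and for 2 of 9 (Id3 above, Id1 below) between light-treated 5xFAD and WT, where 14.9% did not.

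The rise of Id3 in untreated 5xFAD mice was 1.20 ± 0.18 on the log2 scale (2.29-fold, edgeR adjusted p = 0.000788). It was called in all 20 alternatives, and was 1.31 without replicate 3 of untreated 5xFAD (adjusted p = 0.000261). In light-treated mice it was 0.80 ± 0.18 above WT (1.74-fold, adjusted p = 0.0216). That call was lost without any one of WT replicates 1, 3 or 4 or light-treated replicates 2, 3 or 4, with adjusted p values from 0.0501 to 0.0840, and was 0.00891 without untreated 5xFAD replicate 3. Between light-treated and untreated 5xFAD mice the estimate was -0.40 ± 0.18 (adjusted p = 0.255), or -0.51 without that replicate (0.132), and the ranges overlapped. Astrocyte markers (7 genes) summed to 1585 to 1868 in WT, 2105 to 4093 in untreated and 2120 to 2730 in light-treated 5xFAD hippocampi, and the 11 microglia and macrophage markers to 235 to 271, 529 to 738 and 436 to 649. Both sums, like Id3, were higher in each 5xFAD group than in WT. Gene by gene, 3 of 7 astrocyte markers rose in untreated 5xFAD against WT (median 0.26), and 9 of 9 tested microglia and macrophage markers did (median 1.29). For light-treated 5xFAD against WT these were 1 of 7 (median 0.07) and 7 of 9 (median 1.06). The part of these markers in the result was not tested.

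Id1 differed in its pattern from Id3. Its FPKM was 19.05, 21.3, 18.6 and 18.3 in WT, 20.1, 21.4, 44.3 and 25.6 in untreated 5xFAD, and 10.5, 13.1, 13.9 and 15.2 in light-treated 5xFAD mice. Light-treated samples were the lowest and overlapped neither other group, and the highest value was that of replicate 3 of untreated 5xFAD. Groups without overlap between light-treated and untreated 5xFAD mice were found for 2 of 9 members (Bmp3 and Id1, both below), against 7.63% of all genes (12.4% without that replicate). The estimate for light-treated against untreated mice was -1.07 ± 0.22 (2.11-fold lower) and missed the threshold at an adjusted p of 0.0514. Without replicate 3 of untreated 5xFAD it was -0.76 (adjusted p = 0.0574). With no filter on low values it passed at an adjusted p of 0.0389, DESeq2 gave 0.000629, and leaving out untreated 5xFAD replicate 2 gave 0.0237. Against WT, light-treated mice had -0.54 ± 0.22 (adjusted p = 0.230), which passed at 0.0260 without replicate 3 of untreated 5xFAD, and untreated 5xFAD mice had 0.54 ± 0.22 (adjusted p = 0.144), which was 0.22 (0.370) without that library.

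Id2, the most abundant member in HPC, had an FPKM of 173, 125, 146 and 142 in WT, 235, 158, 327 and 149.9 in untreated 5xFAD, and 118, 137, 151 and 141 in light-treated 5xFAD mice. WT and light-treated samples overlapped, and replicates 1 and 3 of untreated 5xFAD lay above both. The estimates were 0.59 ± 0.22 for untreated 5xFAD against WT (adjusted p = 0.113) and -0.68 ± 0.22 for light-treated against untreated mice (adjusted p = 0.140), and were 0.32 and -0.41 without replicate 3 of untreated 5xFAD. The first passed, at 0.74 (adjusted p = 0.0316), without untreated 5xFAD replicate 4, and DESeq2 called the second at 0.0486.

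Of the TGF-β ligands in HPC, no member changed past the threshold. Tgfb2, which neurons of the hippocampus express, had an FPKM of 13.1, 13.9, 14.4 and 15.1 in WT, 13.7, 12.3, 3.75 and 13.4 in untreated 5xFAD, and 14.4, 12.01, 16.3 and 15.2 in light-treated 5xFAD mice. All hippocampi but replicate 3 of untreated 5xFAD lay between 12.01 and 16.3. The estimate for untreated 5xFAD against WT was -0.38 ± 0.30 with that library and -0.09 without it, with adjusted p values of 0.479 and 0.730. For light-treated against untreated mice it was 0.44 ± 0.30 with and 0.15 without it.

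Tgfb3 had an FPKM of 3.71, 3.71, 3.37 and 3.11 in WT, 6.77, 3.46, 3.77 and 4.61 in untreated 5xFAD, and 2.51, 2.15, 3.05 and 3.49 in light-treated 5xFAD mice. Light-treated samples overlapped untreated ones only through the pair of 3.49 and 3.46. The estimate for light-treated against untreated mice was -0.74 ± 0.22 (1.67-fold lower, adjusted p = 0.127), or -0.83 without untreated 5xFAD replicate 3 (0.0987), and DESeq2 called it at 0.0405. Untreated 5xFAD against WT gave 0.44 ± 0.22 (adjusted p = 0.242), or 0.53 without that replicate (0.190). Tgfb1, the ligand of the resting microglial state, was listed at 0.09, 0.10, 0.03 and 0.09 in WT, 0.18, 0.28, 0.17 and 0.46 in untreated 5xFAD, and 0.13, 0.10, 0.16 and 0.32 in light-treated mice. At 1 to 18 counts per sample it was below the filter, so no test was made in HPC. Fitted with no filter, untreated 5xFAD exceeded WT by 1.88 (adjusted p = 0.0986).

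Bmp3, the atypical BMP, was called in 2 comparisons in HPC. It entered the test only through 3 untreated 5xFAD samples at an FPKM of 1 or more, since WT reached at most 0.99 and light-treated samples at most 0.67. With no filter on low values, it gave 1.64 for untreated 5xFAD against WT (adjusted p = 0.0222) and -2.85 for light-treated against untreated mice (0.0195). Its FPKM was 0.99, 0.81, 0.39 and 0.69 in WT, 3.92, 0.89, 2.37 and 2.21 in untreated 5xFAD, and 0.27, 0.29, 0.67 and 0.17 in light-treated 5xFAD mice, on 17 to 512 counts. Every light-treated sample was below every untreated 5xFAD sample, while untreated 5xFAD replicate 2 lay within the WT range.

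The rise of Bmp3 in untreated 5xFAD over WT was 1.67 ± 0.43 (3.18-fold, edgeR adjusted p = 0.0280), and 1.69 without untreated 5xFAD replicate 3 (adjusted p = 0.0358). It was lost without WT replicate 2, 3 or 4 or untreated 5xFAD replicate 1 (adjusted p from 0.0623 to 0.0910). Light-treated mice had 2.87 ± 0.46 less on the log2 scale than untreated mice, that is 7.31-fold lower (adjusted p = 0.0388). That call was lost without untreated 5xFAD replicate 3, at 0.0574, and without WT replicate 1, 2 or 4, untreated 5xFAD replicate 4, or light-treated replicate 1, 2 or 4, with adjusted p values from 0.0535 to 0.173. With any 1 replicate left out the estimate stayed between -3.32 and -2.47. Over the other alternatives it ran from -2.86 to -1.24, and the rise over WT ran from 0.89 to 1.67. Against WT, light-treated mice had -1.20 ± 0.46 (adjusted p = 0.198).

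The fibroblast markers had the same order of groups as Bmp3: their summed FPKM of 174 to 207 in untreated 5xFAD hippocampi overlapped neither WT nor the 50.6 to 70.6 of light-treated hippocampi. Of the 16 fibroblast markers tested, 7 rose in untreated 5xFAD against WT and 6 fell in light-treated against untreated mice, with medians of 1.23 and -1.65. Without replicate 3 of untreated 5xFAD, these counts were 5 and 1 and the medians 1.01 and -1.37. Col6a1, one of these markers, had -2.39 ± 0.40 with light (adjusted p = 0.0402). The choroid plexus markers were 219 to 3263 in untreated and 70.2 to 256 in light-treated hippocampi, with medians of 0.55 and -2.83 over 11 tested markers, and 0 of them were called. The part of these markers in the members' values was not tested.

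**Figure D2:**
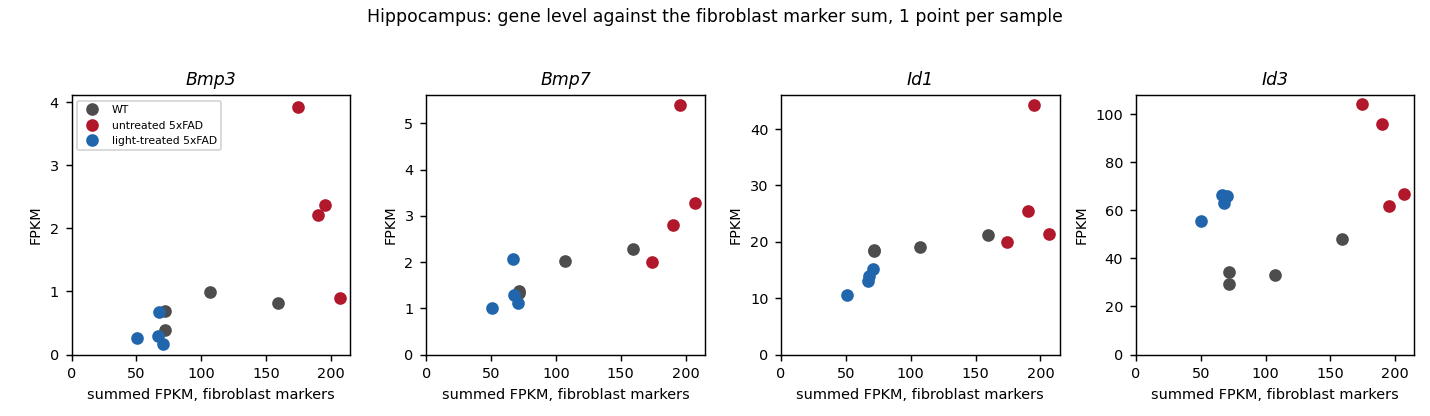
FPKM of Bmp3, Bmp7, Id1 and Id3 in HPC against the summed FPKM of 19 fibroblast markers in the same sample, 1 point per mouse on linear axes. The 4 untreated 5xFAD samples lie to the right at 174 to 207. The 4 light-treated samples lie to the left at 50.6 to 70.6, and WT samples lie between at 71.8 to 159. Id3 of light-treated samples is above that of WT samples.

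Bmp7, made by leptomeningeal cells, had an FPKM of 2.02, 2.29, 1.33 and 1.38 in WT, 2.00, 3.27, 5.39 and 2.80 in untreated 5xFAD, and 1.00, 2.06, 1.28 and 1.12 in light-treated 5xFAD mice. Untreated samples were the highest, apart from replicate 1, which overlapped both other groups. Light-treated against untreated mice gave -1.30 ± 0.30 (2.47-fold lower) at an adjusted p of 0.0720, which was 0.00382 in DESeq2, and -0.98 without untreated 5xFAD replicate 3 (0.0975). For untreated 5xFAD against WT it gave 0.95 ± 0.30 (adjusted p = 0.0699), and 0.62 without that replicate (0.178). The latter comparison passed without untreated 5xFAD replicate 1, at 1.12 (0.0391), and in DESeq2, at 0.0257.

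Bmp4, which promotes astrocyte fate, had an FPKM of 1.00, 1.04, 0.55 and 0.40 in WT, 1.03, 1.74, 2.07 and 1.51 in untreated 5xFAD, and 0.51, 0.81, 0.78 and 1.17 in light-treated mice, on 16 to 73 counts. Its estimates of 1.01 ± 0.36 for untreated 5xFAD against WT (adjusted p = 0.10) and -0.83 ± 0.36 for light-treated against untreated mice (adjusted p = 0.239) did not pass, and were 0.88 (0.188) and -0.70 (0.320) without untreated 5xFAD replicate 3. Bmp6 lay between 0.30 and 1.52 in all hippocampi, and its 3 comparisons had adjusted p values of 0.332, 0.475 and 0.917. Its estimate of 0.59 ± 0.35 for untreated 5xFAD against WT was 0.32 without that replicate, and its -0.49 ± 0.35 for light-treated against untreated mice was -0.22.

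**Figure D3:**
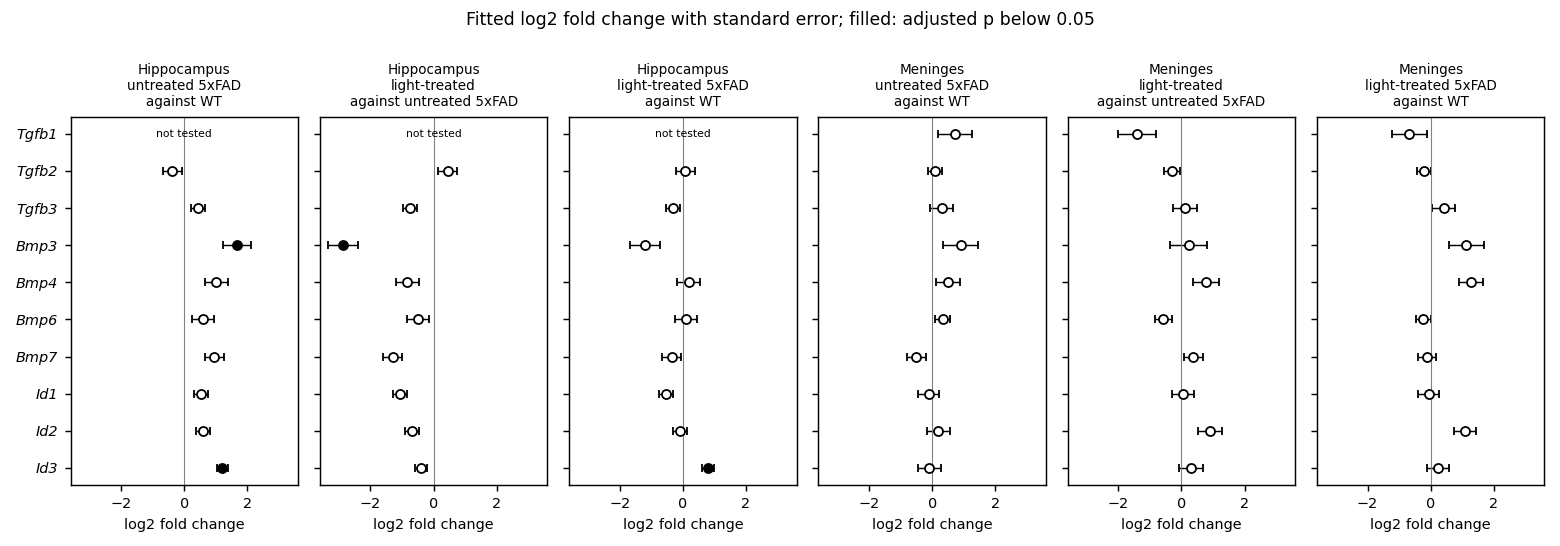
Log2 fold change with SE (linear axis) from edgeR for each gene in the 3 comparisons within HPC and within meninges, with filled points for an adjusted p below 0.05. Filled points occur only in HPC: Bmp3 at 1.67 and Id3 at 1.20 for untreated 5xFAD against WT, Bmp3 at -2.87 with light, and Id3 at 0.80 for light-treated 5xFAD against WT.

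Of the pathway's other genes in HPC, 67 passed the filter. In untreated 5xFAD against WT, 7 rose and 1 fell, a share that can be set beside the 8.54% of all genes. The receptors Tgfbr2 (2.00 ± 0.19, 3.99-fold, adjusted p = 4.34e-05) and Tgfbr1 (0.60 ± 0.14) rose, as did Tgif1 (1.64 ± 0.30), a repressor of SMAD transcription. Ltbp3 (0.97 ± 0.21), the inhibitor Nbl1 (0.48 ± 0.12) and the targets Tagln (1.80 ± 0.44) and Tgfbi (1.28 ± 0.29) rose too, and the SMAD-interacting repressor Zeb2 fell (-0.51 ± 0.15). Without replicate 3 of untreated 5xFAD, the same 7 genes rose, Nrros, which tethers latent TGF-β1 to microglia, was called as well (0.63, adjusted p = 0.0453, named after its value was seen), and Zeb2 lost its call (-0.42, adjusted p = 0.0857). Tgfbr2 had an FPKM of 2.27 to 3.04 in WT, 6.33 to 12.4 in untreated 5xFAD and 6.86 to 9.67 in light-treated mice, so that 5xFAD groups overlapped each other and not WT. Tgfbr2 is well known as a microglial gene in brain, and it moved with the microglial marker sums given above, whose part was not tested.

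Between light-treated and untreated 5xFAD hippocampi, 0 of these 67 genes were called by edgeR, while 7 were above and 14 below 0 at an unadjusted p under 0.05, against 18.3% of all genes at that level (8.54% above and 9.81% below). The 13 target genes had a median of -0.72 against -0.02 over all genes, with 5 lower and 1 higher at that level. Without replicate 3 of untreated 5xFAD the counts over the 67 genes were 0 called, 6 above and 15 below, and the targets' median was -0.58. In light-treated 5xFAD against WT, Tgfbr2 (1.66 ± 0.19) and Tgif1 (1.83 ± 0.30) were higher and Ccn2, a TGF-β target of matrix-forming cells, was lower (-1.86 ± 0.46, adjusted p = 0.0386), and all 3 were also called without that replicate. Ccn2 had an FPKM of 1.67 to 7.75 in WT and 0.83 to 2.17 in light-treated mice, ranges that overlap.

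In meninges all 10 genes were tested, and in each of the 3 comparisons 0 were called by edgeR. Few genes of any kind were: 0% of the 14318 tested for untreated 5xFAD against WT, 0.0140% for light-treated against untreated 5xFAD and 0.0140% for light-treated 5xFAD against WT. In counts simulated with the depth and spread of the comparison of light-treated with untreated 5xFAD meninges, 0 of 200 genes changed 2-fold were recovered. Of 200 changed 4-fold, 137 were recovered. These results hold for 200 changed genes among 14318, a setting that the data need not share. The lack of calls therefore does not show that 2-fold changes were absent.

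At an unadjusted p under 0.05, 0 of 10 members differed between untreated 5xFAD and WT meninges, against 4.01% of all genes, and 0 had groups without overlap, against 4.85%. For light-treated against untreated mice there were 3 of 10 (Tgfb1, Id2 and Bmp6), against 12.7%, and 1 without overlap (Tgfb1), against 20.8%. For light-treated mice against WT there were 2 of 10 (Bmp4 and Id2), against 16.4%, and the same 2 genes were without overlap, against 12.3%. DESeq2 called 0, 0 and 1 members in these comparisons and limma 0 in each.

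**Figure D4:**
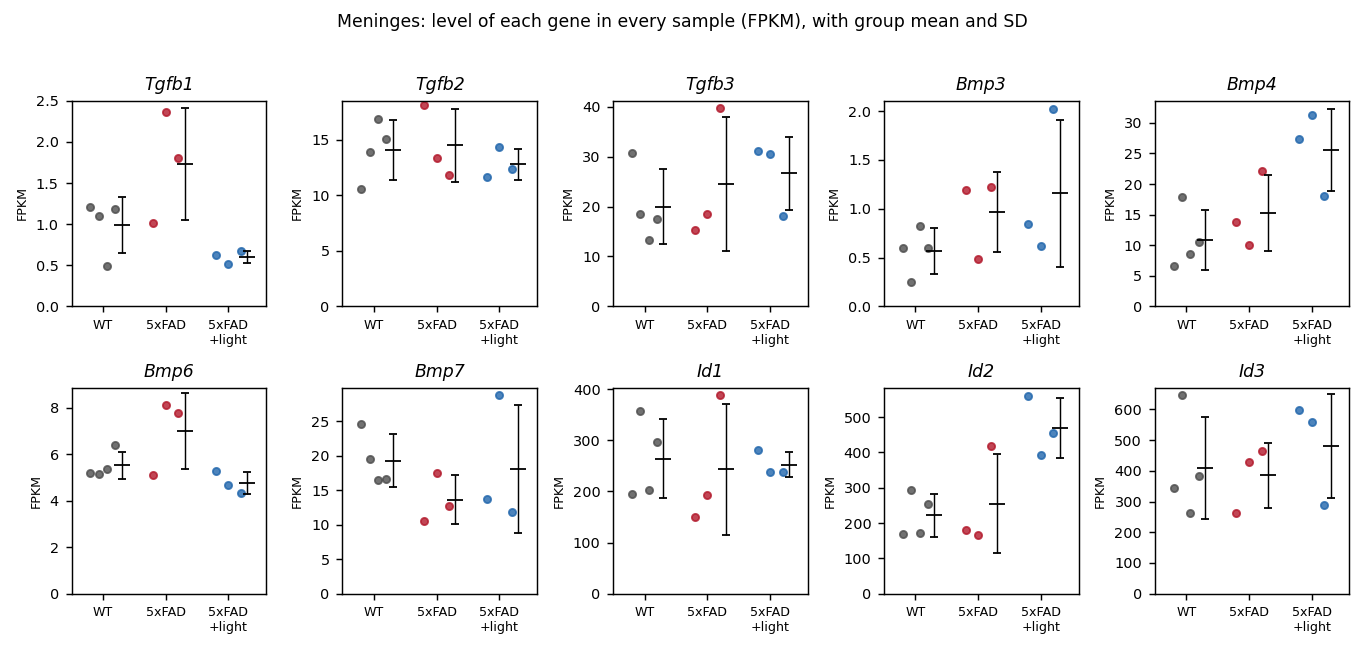
FPKM (linear axis, starting at 0) of the 10 genes in each sample of meninges, 1 point per mouse, with 4 WT, 3 untreated and 3 light-treated 5xFAD mice, with the group mean and SD beside the points. Bmp4 and Id2 of light-treated samples lie above every WT sample, Tgfb1 of light-treated samples lies below every untreated 5xFAD sample, and the other genes overlap between groups.

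Bmp4 in meninges had an FPKM of 6.57, 17.8, 8.60 and 10.6 in WT, 13.7, 9.97 and 22.2 in untreated 5xFAD, and 27.4, 31.2 and 18.1 in light-treated 5xFAD mice. The lowest light-treated sample exceeded the highest WT sample by less than 1 FPKM. The estimate for light-treated 5xFAD against WT was 1.28 ± 0.37 (2.43-fold, unadjusted p = 0.00396 in the edgeR fit, adjusted p = 0.151), and DESeq2 called it at an adjusted p of 0.0421. Without WT replicate 2, the highest WT sample, it was 1.66 (adjusted p = 0.0447).

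Id2 had an FPKM of 169.7, 293, 171 and 253 in WT, 181, 166 and 417 in untreated 5xFAD, and 560.4, 392 and 455 in light-treated meninges. Untreated 5xFAD replicate 4 lay within the light-treated range, and the other untreated samples lay at or just below the low end of WT. The estimates were 1.09 ± 0.35 against WT (2.12-fold, adjusted p = 0.174) and 0.89 ± 0.38 against untreated 5xFAD (adjusted p = 0.368).

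Tgfb1 had an FPKM of 1.21, 1.10, 0.49 and 1.18 in WT, 1.02, 2.37 and 1.81 in untreated 5xFAD, and 0.62, 0.52 and 0.67 in light-treated meninges, on 10 to 56 counts. Light-treated samples were below every untreated 5xFAD sample and within the WT range. The estimate for light-treated against untreated mice was -1.41 ± 0.59 (adjusted p = 0.352), and for Bmp6 it was -0.57 ± 0.26 (adjusted p = 0.385).

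The other genes overlapped between all groups of meninges. Id3 ranged from 262 to 646, Id1 from 149 to 389, Bmp7 from 10.6 to 28.8, Tgfb3 from 13.3 to 39.8, Tgfb2 from 10.6 to 18.2 and Bmp3 from 0.25 to 2.02, reaching the filter through 5xFAD samples alone. Id1 and Id3, which were over 10-fold higher here than in HPC in WT mice, had estimates of -0.11 ± 0.34 and -0.09 ± 0.36 for untreated 5xFAD against WT. Fibroblast markers summed to 2811 to 3631 in WT, 2461 to 3968 in untreated and 3433 to 3751 in light-treated samples. The choroid plexus markers summed to between 16150 and 50500, and pineal markers to between 84.1 and 751, so the RNA of both marker lists was unequal between samples. Their part in the members' values was not tested.

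Of the 81 other pathway genes tested in meninges, 0 were called by edgeR in each comparison. At an unadjusted p under 0.05, 4 were above and 1 below 0 for untreated 5xFAD against WT, 2 above and 11 below for light-treated against untreated 5xFAD, and 7 above and 8 below for light-treated 5xFAD against WT. The 13 other ligands had a median of -0.79 with light, and the 12 genes for latency and activation -0.55, against 0.04 over all genes.

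The difference between the tissues was tested directly with an interaction term over the 22 samples. For the effect of genotype (untreated 5xFAD against WT), 0 of 10 members differed between meninges and HPC, against 1.74% of all genes, and 2 of 10 (Bmp7 and Id3) did at an unadjusted p under 0.05, against 12.8%. Id3 had -1.28 ± 0.41 (adjusted p = 0.132) and Bmp7 -1.46 ± 0.45 (adjusted p = 0.114). The Id3 estimates were 1.20 in HPC and -0.09 in meninges, and those of Bmp7 0.95 and -0.50, none of the meninges values being called. Thus the rise of Id3 in HPC was not shown to be particular to that tissue. Among other pathway genes, 1 was called, Tgfbr2, at -1.62 ± 0.35 (adjusted p = 0.0164).

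For the effect of light, 0 of 10 members differed, against 1.05% of all genes, while 5 of 10 did at an unadjusted p under 0.05 (Bmp3, Bmp7, Id2, Bmp4 and Id1), against 19.8%. All 5 had the higher estimate in meninges. Bmp3 had 3.05 ± 0.76 (adjusted p = 0.0530), Bmp7 1.68 ± 0.47 (0.0721), Id2 1.52 ± 0.45 (0.0874), Bmp4 1.59 ± 0.54 (0.127) and Id1 1.08 ± 0.43 (0.177). With any 1 replicate left out, Bmp3 ran from 2.27 to 3.5, Bmp7 from 1.26 to 1.91 and Id2 from 1.26 to 2.14. Bmp4 then ran from 1.36 to 2.02 and Id1 from 0.76 to 1.65. Bmp3 reached the filter of this fit through 5xFAD samples alone. DESeq2 called Bmp3, Bmp7 and Id2 at adjusted p values of 0.00612, 0.0196 and 0.0259. In edgeR, Bmp3 passed without any one of untreated 5xFAD HPC replicate 2, light-treated HPC replicate 3, WT meninges replicates 1, 2 or 3, or light-treated meninges replicate 1, with adjusted p values from 0.0354 to 0.0488. Id1 and Id2 passed without untreated 5xFAD meninges replicate 4, at 1.65 (0.0366) and 2.14 (0.0155). The fibroblast markers had a median of 1.97 in the same contrast, with 5 of 19 called, and the choroid plexus markers 3.07, with 0 of 12 called. Among other pathway genes, 1 was called, the ligand Gdf11, at -1.09 ± 0.24 (adjusted p = 0.0396). The part of the markers in these differences was not tested.

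In sorted mLECs the Id genes were again the most abundant members. Id3 had an FPKM of 391, 426, 1610.4 and 448 in WT, 1097, 695 and 925 in untreated 5xFAD, and 884, 689 and 1400.1 in light-treated mice. Id1 had 239, 674, 1352 and 306 in WT, 992, 639.9 and 493 in untreated 5xFAD, and 785, 346 and 1038 in light-treated mice. Id2 had 334, 117, 199.5 and 59.03 in WT, 249.4, 269 and 158 in untreated 5xFAD, and 204, 266 and 199.04 in light-treated mice. For Id3 and Id1, the 4 WT libraries alone spanned the whole range of all 10, and no group was apart from another.

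**Figure D5:**
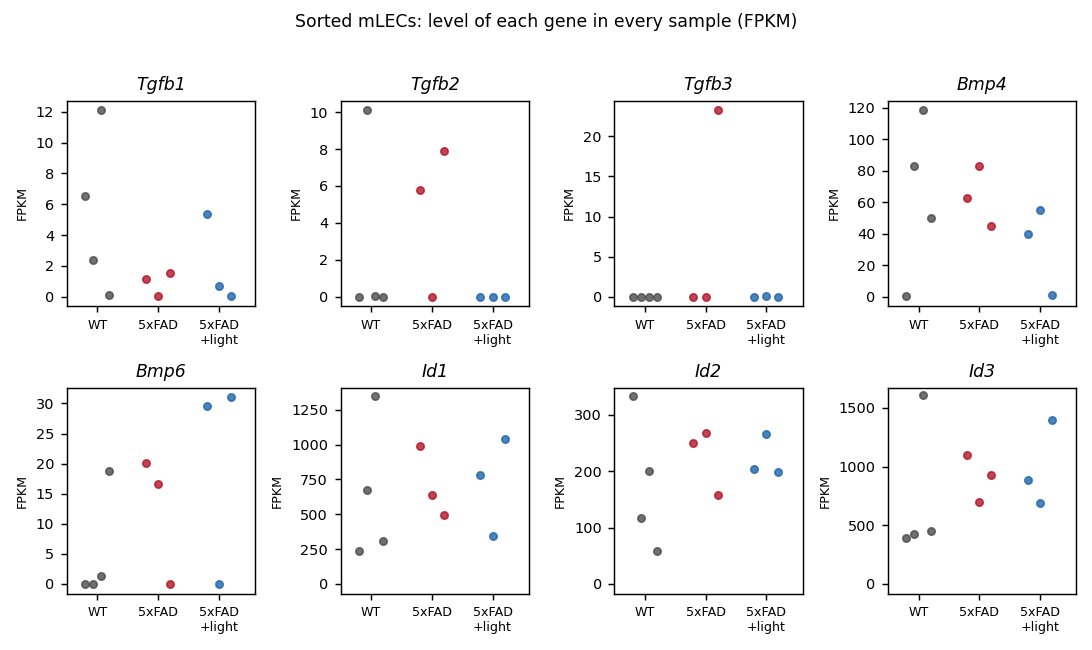
FPKM (linear axis) of 8 of the genes in each library of sorted mLECs, 1 point per mouse, with 4 WT, 3 untreated and 3 light-treated 5xFAD mice; Bmp3 and Bmp7, listed at 0 throughout, are not drawn. The Id genes are detected in every library, whereas the ligands are near 0 in some libraries and high in others of the same group.

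The ligands were present in some mLEC libraries and at or near 0 in others of the same group. Bmp4, a ligand that endothelial cells can make, was 0.06 in WT replicate 1 and 50.0 to 119 in the other WT libraries, 45.1 to 83.0 in untreated 5xFAD, and 39.9, 55.01 and 0.96 in light-treated mice. Bmp6, another endothelial BMP, was 0.01, 0, 1.24 and 18.7 in WT, 20.1, 16.6 and 0.03 in untreated 5xFAD, and 29.6, 0.01 and 31.1 in light-treated mice. Tgfb1 was 6.55, 2.35, 12.1 and 0.09 in WT, 1.14, 0.06 and 1.51 in untreated 5xFAD, and 5.38, 0.69 and 0.03 in light-treated mice. Between libraries of one group, each of these genes was absent or nearly so in one and substantial in another.

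Tgfb2 was 0, 10.1, 0.04 and 0 in WT, 5.78, 0 and 7.90 in untreated 5xFAD, and 0 in all 3 light-treated libraries. Tgfb3 was 23.3 in untreated 5xFAD replicate 4, 0.02 in light-treated replicate 2 and 0 in the other 8 libraries, and Bmp3 and Bmp7 were at 0 in all 10. A count of 0 allows up to 3 counts, that is 0.124 CPM in the largest and 0.211 CPM in the smallest mLEC library (counts scaled to library size), and this limit covers counting error only.

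The 7 members that passed the filter in mLECs had 0 calls by edgeR in each comparison, where 0% of the 8188 genes were called for untreated 5xFAD against WT, 0% for light-treated against untreated 5xFAD and 0.0122% for light-treated 5xFAD against WT. At an unadjusted p under 0.05 the members also had 0 in each, against 3.81%, 4.01% and 6.72% of genes. DESeq2 called 1 member, Tgfb2, in both comparisons with light-treated mice, where that group's 3 libraries are all at 0, and limma called 0. The coefficient of biological variation was 1.89 in mLECs, against 0.198 in HPC and 0.350 in meninges. In simulated counts for light-treated against untreated mLECs, 2 of 200 genes changed 4-fold were recovered among 8188. The data need not share that setting, and the lack of calls does not show that changes of that size were absent. The result was also 0 without WT replicates 2 and 4, a setting added after the data were seen. The other pathway genes had 0 calls among 50, with 1 above and 2 below 0 at an unadjusted p under 0.05 for untreated 5xFAD against WT, 0 and 2 for light-treated against untreated 5xFAD, and 1 and 5 for light-treated 5xFAD against WT.

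The genes whose log2 CPM values were most like each member's were found by Pearson's r over the 12 hippocampi or 10 meninges, as a description over samples that share groups, libraries and depth. Symbols that begin with Gm and a digit, or end in Rik, were left out of this ranking. In HPC, Id3 was most like Scpep1 (r = 0.98), Tor4a (0.97) and Tnfrsf1a (0.97), and Bmp3 was most like Col6a1 (0.95), Sema4a (0.92) and Igfbp6 (0.91). Bmp7 was most like Aldh1a2 (0.94), which makes retinoic acid and is a fibroblast marker here, and Tgfb2 was most like Rnf182 (0.98), Cpne6 (0.98) and Homer3 (0.97). Id1 was most like Sbds (0.93), Id2 most like Pcdh7 (0.94), Tgfb3 most like Mrps6 (0.94), Bmp4 most like Efcab12 (0.94) and Bmp6 most like Arhgef1 (0.95). In meninges, Id2 was most like Arhgap19 (0.98), Bmp4 like Irgm2 (0.99), Id3 like Gtpbp3 (0.96), Id1 like Fcgrt (0.92) and Tgfb1 like Vim (0.91). No gene was among the 3 leading genes of a member in both tissues.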

How the data were processed

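RNA-seq libraries were made by Smart-seq2, without molecular identifiers. The authors' text gives filtering with fastp and quantification with RSEM, whereas the submitters' processing notes list mm10, Trimmomatic, HISAT2, StringTie and DESeq2, with no roles. The authors deposited estimated counts per gene (expected counts of the kind RSEM writes, not normalized) and FPKM values, scaled by transcript length and library size. HPC and meninges shared 1 table, and mLECs had their own. Of nonzero estimated counts, 81.6% to 89.6% per sample were whole.

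After rounding, edgeR 4.0.16 (R 4.3.3) was run with TMM scaling and quasi-likelihood tests. All 3 groups of a tissue entered 1 fit, and a gene was kept where 3 or more samples of the tissue reached an FPKM of 1. Adjustment (Benjamini-Hochberg) covered every gene kept, and 0.05 was the threshold of a call. Comparisons between tissues used 1 fit of all HPC and meninges samples. Alternatives were DESeq2 1.42.0, limma 3.58.1 on log2(FPKM + 1 or 0.1), RLE scaling, other filters, the compared groups alone, a replicate block and each replicate left out. The mLEC fit without 2 WT libraries and the HPC lists without untreated 5xFAD replicate 3 were chosen after seeing the data. Replicates of a group differed by more than sampling noise in all 42 pairs (chi-square per degree of freedom of at least 10.3), so each was counted as 1 sample. The fit was tested on simulated data. Expression was read per gene, with no strand or isoform information. The members and lists were chosen with earlier results of these data known. All 10 members were named in every comparison; of each pathway list, at most 6 called genes with the smallest adjusted p were named per comparison, and for each member up to 3 genes with the highest r. Ctgf was matched to Ccn2 by its RefSeq synonym.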

Additional observations from a re-analysis of the deposited data

Results flagged for a closer look

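A single sample stood far from the other 3 of its group in 7 of the 47 groups of 4 samples checked over the members, by Dixon's ratio of the gap to the range. About 1 in 20 such groups is expected by chance. In HPC, Tgfb2 was 3.75 in replicate 3 of untreated 5xFAD, and Tgfb1 was 0.03 in WT replicate 3. In meninges, Tgfb1 was 0.49 in WT replicate 3 and Bmp6 was 6.40 in WT replicate 4. In mLECs, Tgfb2 was 10.13 in WT replicate 2, Bmp6 was 18.73 in WT replicate 4 and Id3 was 1610.43 in WT replicate 3. The first of these is the library in which Prox1 was also lowest, and the Tgfb1 values in HPC rest on 5 counts or fewer per WT sample.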

How the results depend on the processing

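All 7 calls between the tissues in WT were made under each alternative run. In HPC, untreated 5xFAD against WT had 2 members called, and 1 (Id3) with a mean FPKM of at least 5, with the replicate block and with limma and a pseudocount of 0.1, which for Bmp3 gave adjusted p values of 0.0593 with the block and 0.0573 in limma. With DESeq2, Bmp7 was called beside these 2, at an adjusted p of 0.0257. Light-treated against untreated 5xFAD had 1, but 2 with no filter, 0 with a mean FPKM of at least 5, which drops Bmp3, 0 with the compared groups alone (Bmp3 at 0.123) and 5 with DESeq2. Light-treated 5xFAD against WT had 1, but 0 where a 2-fold change was also required and 2 (Id1 too) with the compared groups alone. DESeq2 gave 1 instead of 0 for light-treated 5xFAD against WT in meninges and for both comparisons with light-treated mLECs, and 3 instead of 0 for the difference of the light effect between tissues. Why the tools differ was not tested.

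Leaving out 1 replicate at a time gave 1 to 3 members in HPC for untreated 5xFAD against WT (3 without untreated 5xFAD replicate 4), 0 to 2 for light-treated against untreated, 0 to 2 for light-treated against WT, 0 to 1 in meninges for light-treated against WT (1 without WT replicate 2), and 0 to 2 for the difference of the light effect (2 without untreated 5xFAD meninges replicate 4). Signs turned only for estimates that were not called. With other settings, Id2 was -0.03 in meninges for untreated 5xFAD against WT (replicate block), Id1 was -0.00 with light in meninges (mean FPKM of at least 5), Tgfb2 between the tissues was -0.07 with no filter and -0.02 in limma, and in limma the differences of the 5xFAD effect were 0.21 for Tgfb1 and 0.01 for Bmp6. With 1 replicate left out, the ranges that crossed 0 were, in HPC for light-treated against WT, Bmp4 -0.09 to 0.38 and Bmp6 -0.12 to 0.29. In meninges they were, for untreated 5xFAD against WT, Tgfb2 -0.12 to 0.21, Tgfb3 -0.25 to 0.57, Id1 -0.64 to 0.15, Id2 -0.38 to 0.43 and Id3 -0.27 to 0.24. For light-treated against untreated 5xFAD they were Tgfb3 -0.15 to 0.66, Bmp3 -0.61 to 0.53, Bmp7 -0.02 to 0.61 and Id1 -0.21 to 0.57, and for light-treated against WT Bmp7 -0.52 to 0.06, Id1 -0.20 to 0.12 and Id3 -0.04 to 0.53. Between the tissues they were Tgfb2 -0.15 to 0.12 in WT, Tgfb3 -0.73 to 0.16 and Bmp6 -0.40 to 0.03 for the 5xFAD effect, and Bmp6 -0.39 to 0.04 for the light effect.

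Same-numbered samples shared only a number: correlations of their deviations ran from -0.28 to 0.09 in HPC, -0.31 to 0.24 in meninges and -0.03 to 0.01 in mLECs. The replicate block changed no other count of members called. Depth limits Tgfb1 in HPC, and the spread between libraries limits the mLECs.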
